A study of Mus musculus with 5 samples.

Results

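Hepatic nuclear receptors are the transcription factors through which liver cells read bile acids, oxysterols, drugs and steroids. Examined here were 9 genes taken by name out of the 55397 genes of the expression table. They were the xenobiotic receptors Nr1i2 (PXR) and Nr1i3 (CAR), the bile acid receptor Nr1h4 (FXR) with its target Nr0b2 (SHP), the oxysterol receptor Nr1h3 (LXR alpha), the shared dimer partner Rxra, the orphan receptor Esrra (ERR alpha), the glucocorticoid receptor Nr3c1 and the aryl hydrocarbon receptor Ahr. Ahr belongs to the bHLH-PAS proteins, so 8 of the 9 are nuclear receptors by family. All 9 were well detected and all 9 were tested.

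The samples were bulk liver tumors of female C57BL/6N mice, injected at 8 weeks of age into the tail vein with plasmids that hepatocytes take up. Every mouse, Control included, received Sleeping Beauty transposase behind a CMV promoter together with transposons for AKT and for the NOTCH intracellular domain (NICD), both behind the EF1a promoter, the latter also carrying the doxycycline-dependent activator rtTA. This pair of drivers gives tumors that resemble cholangiocarcinoma (CCA), a cancer with bile duct features. The Prox1 OE group (3 libraries) also received FLAG-tagged mouse Prox1 with GFP behind a doxycycline-responsive promoter, and the Control group (2 libraries) received GFP alone behind the same promoter. Doxycycline food (6.25%) was given from day 21, for overexpression from week 3 to 4, and collection followed after a week of it or at a humane endpoint, without a statement of which applied to which tumor. Values are normalized counts, meaning reads per gene divided by a size factor of the library. Libraries of a group came as separately labeled replicates, but the labels do not say whether each was a separate mouse, so that p-values measure the spread between these libraries.

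Most nuclear receptors are activated by a small lipophilic ligand and bind hexamer half-sites of DNA. PXR, CAR, FXR and LXR do so paired with RXR. In hepatocytes PXR and CAR induce drug-metabolizing enzymes and transporters, FXR senses bile acids and induces their export, SHP is a receptor without a DNA-binding domain that dampens bile acid synthesis, and LXR induces sterol efflux and fatty acid synthesis genes. The glucocorticoid receptor and AHR wait in the cytoplasm with HSP90 chaperones until ligand arrives, which means that the level of receptor mRNA is not a measure of its activity. PROX1 is a homeodomain factor of hepatocytes that is known to bind several nuclear receptors as a corepressor.

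Prox1 itself had 4153 and 4664 normalized counts in Control replicates 1 and 2 and 48090, 11113 and 8231 in Prox1 OE replicates 1, 2 and 3, above Control in each. This difference did not pass (1.90 on the log2 scale, SE 0.66, limma, adjusted p = 0.061). Replicate 1 was far from the other Prox1 OE libraries, and its part in the result was not tested. Recovered totals of 48740863 to 56629477 reads per library overlapped between the groups. The scaling by size factor did not overlap. Each read counted as 0.82 and 0.85 normalized counts in Control replicates 1 and 2. In Prox1 OE replicates 1, 2 and 3 each read counted as 1.02, 1.18 and 1.16. Relative to reads, normalized counts were thus higher in Prox1 OE for every gene, and the cause was not tested. Results with total reads as library size are given below. The labels call the cells transformed hepatocytes. Hepatocyte markers were present in every library, with a summed level of 11 markers of 1195357 to 1722520 in Control and 3426422 to 4996306 in Prox1 OE, and 8 of the 11 rose while 0 fell. Of 8 cholangiocyte markers 7 were tested, and 6 fell while 0 rose. Of 9 Kupffer cell markers 5 rose and 0 fell, their sum going from 21753 to 23347 in Control to 37581 to 50524 in Prox1 OE. Of 5 T cell markers 4 rose, with sums of 124 to 158 in Control and 297 to 441 in Prox1 OE, and of 3 tested B cell markers 1 rose. Of 7 endothelial markers 2 rose, Stab2 (1.04) and Clec4g (2.61), and 5 did not pass, namely Kdr (0.44), Tie1 (-0.02), Pecam1 (-0.27), Cdh5 (-0.33) and Lyve1 (-0.53), with a list median of -0.02. Of 7 stellate cell markers 2 rose, Lrat (1.09) and Reln (0.55), and 2 fell, the myofibroblast genes Col1a1 (-1.23) and Acta2 (-1.32). Dcn (0.27), Pdgfrb (-0.08) and Des (-0.32) did not pass, and the list median was -0.08. The part of these cell types in the results below was not tested. In bulk tissue, fewer cells of a type and less RNA per cell cannot be told apart.

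The sequence just before the start of transcription is shown for Nr0b2, which had the largest change, and for the receptors of xenobiotics and bile acids. Sequences are from RefSeq on GRCm38.p6, 250 bases that end immediately before an annotated start, and such windows were taken for 7 of the 9 genes. Capitals mark letters that match any of 7 searched motifs on either strand, namely the nuclear receptor half-site AGGTCA, the extended half-site AAGGTCA that contains it, the HNF4 core CAAAGTCCA, the E-box CACGTG, the AHR core GCGTG, the GC box GGGCGG and the TATA motif TATAAA.

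Nr0b2, chr4:133553126-133553375, plus strand: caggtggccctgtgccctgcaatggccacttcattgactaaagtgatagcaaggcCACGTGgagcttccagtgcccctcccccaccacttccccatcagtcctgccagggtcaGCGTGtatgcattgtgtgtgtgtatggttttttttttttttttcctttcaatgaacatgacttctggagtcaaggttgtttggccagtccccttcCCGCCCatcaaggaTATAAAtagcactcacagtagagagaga
Nr1i2, chr16:38294825-38295074, minus strand: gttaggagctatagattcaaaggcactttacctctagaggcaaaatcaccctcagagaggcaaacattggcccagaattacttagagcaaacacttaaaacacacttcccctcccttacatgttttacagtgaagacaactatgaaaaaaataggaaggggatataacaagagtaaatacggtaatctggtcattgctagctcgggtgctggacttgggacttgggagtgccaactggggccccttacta
Nr1i3, chr1:171213720-171213969, plus strand: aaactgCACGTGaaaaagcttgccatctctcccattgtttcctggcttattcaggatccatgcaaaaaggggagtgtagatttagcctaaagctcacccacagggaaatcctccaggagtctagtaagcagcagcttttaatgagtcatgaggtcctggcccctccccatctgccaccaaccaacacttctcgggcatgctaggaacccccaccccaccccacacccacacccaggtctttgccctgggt
Nr1h4, chr10:89506659-89506908, minus strand: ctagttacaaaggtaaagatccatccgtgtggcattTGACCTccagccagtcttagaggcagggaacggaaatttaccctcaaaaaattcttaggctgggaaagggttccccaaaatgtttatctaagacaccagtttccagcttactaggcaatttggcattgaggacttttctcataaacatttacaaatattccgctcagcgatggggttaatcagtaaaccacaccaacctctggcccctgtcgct

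Nr0b2 held 4 matches, an E-box, an AHR core, a GC box on the opposite strand and a TATA motif that began 28 bases before the start. Nr1i3 held an E-box and Nr1h4 a half-site on the opposite strand, while Nr1i2 held 0 matches. The windows of Nr0b2, Nr1i2 and Nr1i3 abut the annotated 5′ ends of their genes, whereas that of Nr1h4 precedes an internal start and lies inside the gene, where it overlaps 0 annotated GENCODE exons. Among 32536 RefSeq windows of the same length, 14.0% held the half-site, 4.09% the extended half-site, 0.387% the HNF4 core, 6.04% the E-box, 28.3% the AHR core, 33.0% the GC box and 12.3% the TATA motif. These are letter matches and not measured binding sites.

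Across the 9 genes, 6 rose with Prox1 OE, 0 fell and 3 did not pass the test. The 6 were Nr1i2, Nr1i3, Nr1h4, Nr0b2, Nr1h3 and Rxra, that is, the lipid and xenobiotic receptors, SHP and their dimer partner. Esrra, Nr3c1 and Ahr were not called. Among all 17105 genes tested, 17.1% were called higher and 16.2% lower. Calls used limma on log2(normalized count + 1) with a Benjamini-Hochberg adjusted p under 0.05, and log2 fold changes below are Prox1 OE over Control on that scale. The groups did not overlap in any of the 9 genes, Prox1 OE being above Control throughout in 7 (30.9% of all genes tested) and below throughout in 2 (32.4%). The median log2 fold change of the 9 genes was 0.90, beside -0.02 for all genes tested.

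**Figure D1:**
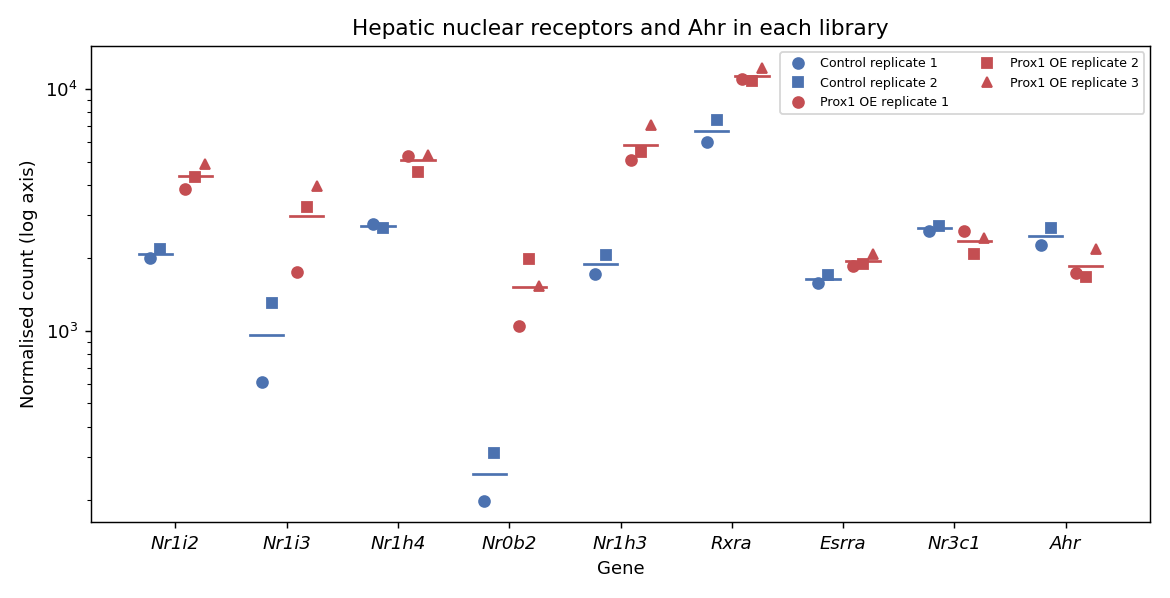
Normalized counts (log axis) of the 9 genes in each library; blue points are the 2 Control libraries, red points the 3 Prox1 OE libraries, marker shapes the replicate numbers and short lines the group means. Nr0b2 shows the widest gap between the groups, Nr3c1 nearly none, and Ahr lies lower in Prox1 OE.

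Nr1i2 (ENSMUSG00000022809, mm10 chr16:38248323-38294824, minus strand), the broad xenobiotic sensor PXR, had 1988 and 2168 normalized counts in Control and 3845, 4329 and 4877 in Prox1 OE replicates 1, 2 and 3. The groups were well apart, with the lowest Prox1 OE library far above the higher Control library. Means were 2078 ± 127 (SD, n = 2) and 4350 ± 517 (SD, n = 3), and the change was 1.06 on the log2 scale (SE 0.13, 95% interval 0.75 to 1.37; limma, adjusted p = 0.0028). The rise passed the threshold under all 14 alternatives.

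Nr1i3 (mm10 chr1:171213970-171220701, plus strand), the constitutively active receptor CAR that responds to phenobarbital-type inducers, had 613 and 1298 normalized counts in Control and 1748, 3244 and 3966 in Prox1 OE. Both groups were widely spread, Control replicate 1 being less than the other Control library and Prox1 OE replicate 1 well under the other two, and the groups did not overlap. On the log2 scale Nr1i3 rose by 1.66 (SE 0.40, interval 0.72 to 2.60, adjusted p = 0.019). Single libraries decided this call, since it was 1.12 with an adjusted p of 0.14 without Control replicate 1 and 1.56 with an adjusted p of 0.075 without Prox1 OE replicate 2. The gene shares 4691 bases with Tomm40l on the opposite strand, and whether counting used strand is not given in the sources used here. Tomm40l, an import receptor of mitochondria, had 1887 and 1756 normalized counts in Control and 2188, 2588 and 2442 in Prox1 OE. The part of reads from the shared bases in the Nr1i3 values was not tested.

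Targets of CAR and PXR were described by a list of 18 enzymes, transporters and response genes, of which 15 rose, 1 fell and 2 did not pass, with a median log2 fold change of 1.16. Cyp2b10, the standard read-out of CAR, had 37.0 and 142 normalized counts in Control and 1596, 662 and 757 in Prox1 OE replicates 1, 2 and 3. It rose by 3.66 on the log2 scale (SE 0.58, adjusted p = 0.0045), and by 2.70 and 4.61 without Control replicates 1 and 2. Cyp3a11, the standard read-out of PXR, had 11367 and 28750 normalized counts in Control and 91491, 60891 and 100971 in Prox1 OE, a rise of 2.19 on the log2 scale (adjusted p 0.0068). The carboxylesterase gene Ces2a rose by 2.48 on the log2 scale (adjusted p 0.0030), and so did the cytochrome P450 gene Cyp2c29 (2.48, adjusted p 0.0034). Gadd45b, a stress gene that CAR activators induce, was the exception, with 1225 and 982 normalized counts in Control and 503, 629 and 547 in Prox1 OE (log2 fold change -0.97, adjusted p 0.0055). Without Control replicate 1 the counts of the list were 7 higher and 0 lower, and neither Cyp3a11 (1.52, adjusted p 0.056, against 2.86 without Control replicate 2) nor Gadd45b (0.081) was called. Without either Control library the other Control stands alone and its variance is taken from the Prox1 OE group, and calls over all genes were then 681 higher and 477 lower without replicate 1, and 1436 higher and 834 lower without replicate 2.

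Nr1h4 (mm10 chr10:89454234-89533585, minus strand), the bile acid receptor FXR, had 2753 and 2657 normalized counts in Control and 5277, 4530 and 5346 in Prox1 OE. Replicates were close within each group and the groups were far apart. Nr1h4 rose by 0.90 on the log2 scale (SE 0.12, adjusted p = 0.0031), and the call held under all 14 alternatives.

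Nr0b2 (mm10 chr4:133553376-133556536, plus strand) encodes SHP, which FXR induces and which in turn represses bile acid synthesis. Its normalized counts were 198 and 312 in Control and 1043, 1973 and 1535 in Prox1 OE, so that even the lowest Prox1 OE library was several times the higher Control library. This was the largest rise of the 9 genes, 2.56 on the log2 scale (SE 0.30, interval 1.86 to 3.25, adjusted p = 0.0025). It was called under all 14 alternatives, between 2.13 and 2.88.

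Of 9 genes that FXR induces, 8 were tested, 6 rose, 0 fell and 2 did not pass, with a median log2 fold change of 1.62. Abcb11, the bile salt export pump, had 2636 and 4089 normalized counts in Control and 11350, 11143 and 19331 in Prox1 OE, a rise of 2.04 on the log2 scale (adjusted p 0.0033). Slc51b, a subunit of the basolateral bile acid exporter, had 178 and 287 in Control and 513, 946 and 815 in Prox1 OE, a rise of 1.70 on the log2 scale (adjusted p 0.0068, and 0.068 without Control replicate 1). Slc27a5, which couples bile acids to coenzyme A before conjugation, rose by 1.78 on the log2 scale (adjusted p 0.0031).

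The genes that FXR and SHP repress did not fall. Cyp7a1, the rate-limiting enzyme of bile acid synthesis, had 134 and 218 normalized counts in Control and 765, 510 and 1008 in Prox1 OE, a log2 fold change of 2.09 (SE 0.32, adjusted p 0.0042). Cyp8b1, the sterol 12-hydroxylase that makes cholic acid, had 428 and 989 in Control and 1876, 1866 and 6666 in Prox1 OE (2.13, adjusted p 0.029). Slc10a1, the hepatocyte bile acid importer, had 762 and 1427 in Control and 2138, 3404 and 9361 in Prox1 OE (1.97, adjusted p 0.034). In the last 2 genes Prox1 OE replicate 3 stood well above the others. All 3 genes of this list therefore rose, with a median of 2.09. The count fell to 1 without Control replicate 1 and without Prox1 OE replicate 2, and to 2 without Control replicate 2. Adjusted p values of Cyp8b1 and Slc10a1 were 0.20 and 0.22 without Control replicate 1, and 0.053 and 0.086 without Prox1 OE replicate 2, and that of Slc10a1 was 0.066 without Control replicate 2. With no filter on low genes they were 0.056 and 0.065. Cyp8b1 was 1.53 and 2.74 without Control replicates 1 and 2, and without Prox1 OE replicate 3 it was 1.52 and Slc10a1 1.37. A repressor, SHP, and genes it is known to repress were thus higher in the same tumors, and bulk RNA does not show whether they were in the same cells.

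Nr1h3 (mm10 chr2:91184061-91202834, minus strand) encodes LXR alpha, the oxysterol receptor of liver and macrophages. It had 1712 and 2060 normalized counts in Control and 5053, 5456 and 7071 in Prox1 OE, with no overlap and with replicate 3 the highest. The rise of 1.63 on the log2 scale (SE 0.17, interval 1.23 to 2.02, adjusted p = 0.0024) was called under all 14 alternatives. Its close relative Nr1h2 (LXR beta), which is found in most cell types, had 3032 and 3135 normalized counts in Control and 3184, 3607 and 3351 in Prox1 OE, a log2 fold change of 0.13 that did not pass (adjusted p 0.39). Accordingly the ratio of normalized counts of Nr1h3 to Nr1h2 was 0.565 and 0.657 in Control and 1.59, 1.51 and 2.11 in Prox1 OE. LXR beta had more reads than LXR alpha in each Control library, and fewer in each Prox1 OE library. An exact two-sided permutation test of that log2 ratio gave p = 0.1 (n = 2 and 3, adjusted p 0.1 over 2 ratios), the smallest that 10 splits allow. Kupffer cell markers rose as well (above), and their part in the Nr1h3 result was not tested.

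Among 12 LXR targets 8 rose, 0 fell and 4 did not pass, with a median of 0.76. Abcg8, a subunit of the biliary sterol exporter, had 178 and 309 normalized counts in Control and 832, 977 and 1415 in Prox1 OE (log2 fold change 2.15, adjusted p 0.0032). Fasn, fatty acid synthase, rose by 2.00 (adjusted p 0.0047), Scd1, the stearoyl-CoA desaturase, by 1.80 (0.019) and the lipogenic regulator Srebf1 by 0.73 (0.0042). Abca1, the sterol efflux pump most often used as an LXR read-out, had 3405 and 3627 in Control and 4517, 2563 and 3625 in Prox1 OE, so that the groups overlapped (log2 fold change -0.02, adjusted p 0.96). The count of the list was 1 without Control replicate 1, and 5 both without Control replicate 2 and with total reads as library size. Of the genes named, Srebf1 (adjusted p 0.066), Fasn (0.062) and Scd1 (0.30) were not called without Control replicate 1, nor was Scd1 without Control replicate 2 (0.14) or Srebf1 with total reads as library size (0.11).

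Rxra (mm10 chr2:27676440-27762957, plus strand), the dimer partner that PXR, CAR, FXR and LXR need to bind DNA, had 6002 and 7397 normalized counts in Control and 10948, 10720 and 12235 in Prox1 OE. The groups were apart by more than the spread of either. Rxra rose by 0.76 on the log2 scale (SE 0.14, adjusted p = 0.0068). The value was 0.61 with an adjusted p of 0.098 without Control replicate 1, and 0.33 with an adjusted p of 0.063 when libraries were scaled by total reads. Its relative Rxrb had overlapping groups (log2 fold change 0.16, adjusted p 0.35), and the ratio of Rxra to Rxrb was 2.75 and 3.26 in Control and 4.94, 4.03 and 4.72 in Prox1 OE (exact permutation p = 0.1, again the smallest possible). The ratios of both gene pairs compare genes within a library and do not depend on the scaling.

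Esrra (mm10 chr19:6910977-6921813, minus strand) encodes ERR alpha, an orphan receptor that drives mitochondrial genes together with PGC-1 coactivators. It had 1572 and 1700 normalized counts in Control and 1842, 1893 and 2070 in Prox1 OE, a narrow but complete separation of the groups. At 0.24 on the log2 scale (SE 0.12, interval -0.03 to 0.51), the difference did not pass (adjusted p = 0.15). With total reads as library size it turned to -0.19. A short stretch of 73 bases is shared with Trmt112 on the opposite strand.

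Of 13 ERR alpha targets 10 rose, 0 fell and 3 did not pass, with a median of 0.58. The succinate dehydrogenase gene Sdhb had 6400 and 6402 normalized counts in Control and 12073, 12910 and 16050 in Prox1 OE (log2 fold change 1.08, adjusted p 0.0032). The fatty acid oxidation gene Acadm rose by 0.89 (adjusted p 0.0047) and the cytochrome c1 gene Cyc1 by 0.87 (0.0054). Pdk4, which limits pyruvate oxidation, had 696 and 857 in Control and 1303, 861 and 991 in Prox1 OE and did not pass (0.42, adjusted p 0.14). Changes in this list were small, and its count of 10 fell to 1 and 3 without Control replicate 1 and 2, to 6 without Prox1 OE replicate 3, and to 3, with 2 lower, with total reads as library size. Acadm and Cyc1 were not called without Control replicate 1 (adjusted p 0.067 and 0.071).

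Nr3c1 (chromosome 18, minus strand), the glucocorticoid receptor, had 2588 and 2701 normalized counts in Control and 2570, 2064 and 2417 in Prox1 OE. All 3 Prox1 OE values were below Control, but replicate 1 was within a few percent of it. The difference of -0.18 on the log2 scale (SE 0.13, interval -0.48 to 0.13) did not pass (adjusted p = 0.32). With total reads as library size the value was -0.61 and passed (adjusted p 0.0099).

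Of 13 glucocorticoid receptor targets 4 rose, 0 fell and 9 did not pass, with a median of 0.34. Tat, the tyrosine aminotransferase gene that defined glucocorticoid induction in liver, had 3744 and 5723 normalized counts in Control and 12552, 37573 and 59699 in Prox1 OE (log2 fold change 2.72, adjusted p 0.012). G6pc, the last step of glucose release, had 2582 and 4199 in Control and 5975, 13209 and 20563 in Prox1 OE (1.84, adjusted p 0.023). Tdo2, the tryptophan dioxygenase of hepatocytes, rose by 1.72 (adjusted p 0.0034). The fourth gene that rose was Dusp1, a phosphatase gene (0.55, adjusted p 0.045). Fkbp5, a target that many cell types share, had 4278 and 5394 in Control and 4664, 4161 and 5655 in Prox1 OE and did not pass (0.00, adjusted p 0.99), though it was called lower with total reads as library size (-0.44, adjusted p 0.034). The gluconeogenic enzyme gene Pck1 did not pass either, with overlapping groups (1.96, adjusted p 0.078). Dusp1 and Pck1 were named after their values were seen.

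Prox1 OE libraries differed among themselves in several target lists. For the glucocorticoid receptor targets, replicate 1 was the lowest of them in 8 of the 13 genes (61.5%), Tat and G6pc included, beside 35.4% of all genes tested and 50.9% of genes called higher. It was the highest in 2 genes (15.4%, beside 40.0% and 17.9%), the metallothionein genes Mt1 (29287 normalized counts against 11413 and 10856) and Mt2 (15276 against 8039 and 9069). The median range over the Prox1 OE libraries was 0.93 on the log2 scale for the 13 glucocorticoid receptor targets, 1.84 for the 3 genes that FXR and SHP repress, 0.73 for hepatocyte markers, 0.34 for the 9 receptor genes and 0.35 for 12970 genes with a mean of at least 100. Per1, a clock gene that glucocorticoids induce, named like Mt1 and Mt2 after values were seen, had 593 normalized counts in replicate 1 against 2552 and 2146 in the other Prox1 OE libraries and 2526 and 2650 in Control. With total reads as library size 3 genes of the list were higher and 1 lower. Without Prox1 OE replicate 1 the list count was 6, without Control replicate 1 or Prox1 OE replicate 2 it was 1, and without Control replicate 2 it was 2. Tat was 3.35 without Prox1 OE replicate 1, and was not called without Control replicate 1 (adjusted p 0.098) or Prox1 OE replicate 2 (0.054), and G6pc was not called without Control replicate 1 (0.16), Control replicate 2 (0.055) or Prox1 OE replicate 2 (0.085).

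Ahr (mm10 chr12:35497974-35535038, minus strand), the receptor of dioxins and tryptophan metabolites, had 2265 and 2660 normalized counts in Control and 1724, 1665 and 2177 in Prox1 OE. Each Prox1 OE library was below Control, replicate 3 by the least. The difference was -0.41 on the log2 scale (SE 0.15, interval -0.77 to -0.05), which did not pass after adjustment (adjusted p = 0.075). It did pass without Prox1 OE replicate 3 (-0.53, adjusted p 0.033) and with total reads as library size (-0.85, adjusted p 0.0024).

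Of 8 AHR targets 7 were tested, 4 rose, 2 fell and 1 did not pass, with a median of 1.88. Cyp1a2, a P450 abundant in hepatocytes, had 794 and 1546 normalized counts in Control and 6161, 4713 and 13138 in Prox1 OE (log2 fold change 2.71, adjusted p 0.0050). Nqo1, a quinone reductase, had 584 and 682 in Control and 2483, 2145 and 2364 in Prox1 OE (1.88, adjusted p 0.0014). Ugt1a6a, a glucuronidating enzyme whose exons are partly shared among the Ugt1a genes, rose by 2.22 (adjusted p 0.0028), and its counts are uncertain for that reason. Cyp1a1, the standard AHR read-out, was low, at 5.75 and 43.2 in Control and 97.1, 64.9 and 91.4 in Prox1 OE (2.29, adjusted p 0.045). Its value was 3.64 without Control replicate 2, and the call was lost without any of Control replicate 1 (0.93, adjusted p 0.21) or Prox1 OE replicates 1, 2 and 3 (0.095, 0.098 and 0.10), with no filter (0.084) and in edgeR (0.081). Cyp1b1, the P450 of the family that lies mostly outside hepatocytes, went the other way, with 3911 and 4545 in Control and 2575, 1811 and 1468 in Prox1 OE (-1.15, adjusted p 0.0091). Leaving out Control replicate 1 or 2, Cyp1b1 missed the threshold (adjusted p 0.057 and 0.069) and 1 gene of the list was lower in place of 2. The other gene that fell was the aldehyde dehydrogenase Aldh3a1, named after its values were seen, with 232 and 37.3 in Control and 2.05, 1.18 and 2.31 in Prox1 OE (adjusted p 0.0041). Its Prox1 OE values were those of 1 or 2 reads, so that no fold is given.

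**Figure D2:**
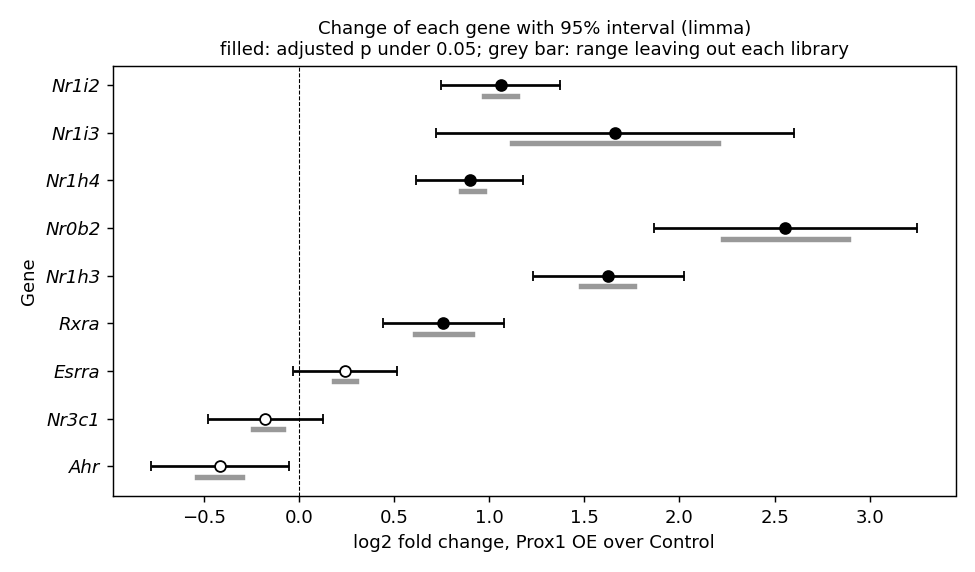
Log2 fold change of each of the 9 genes, Prox1 OE over Control, from limma; points are estimates, black bars 95% intervals, filled points pass the adjusted threshold, and grey bars span the estimates with each library left out in turn. The 6 filled genes run from 0.76 (Rxra) to 2.56 (Nr0b2), and the grey bar is widest for Nr1i3 (1.12 to 2.20).

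Genes of proteins that work with the receptors gave other counts. Of 11 coregulators 1 rose, 4 fell and 6 did not pass, with a median of -0.36. The histone acetyltransferase gene Ep300 had 2454 and 2272 normalized counts in Control and 1684, 1037 and 1246 in Prox1 OE (log2 fold change -0.86, adjusted p 0.016). The corepressor gene Ncor1 (-0.56, adjusted p 0.044) was also lower, whereas the coactivator Ppargc1a, PGC-1 alpha, had overlapping groups (0.19, adjusted p 0.47). Med1 also fell and the gene that rose was Ppargc1b, both named after their values were seen, since the counts are of few genes. Without Control replicate 1 or 2 the count of coregulators lower was 0, and without Prox1 OE replicate 2 or 3 it was 2. The count higher was 0 without Control replicate 1 or 2 or Prox1 OE replicate 1 or 3, and with total reads as library size 9 coregulators were lower and 0 higher. Ep300 missed the threshold without Control replicate 1 (adjusted p 0.12) and 2 (0.077). Ncor1 missed it without Control replicates 1 and 2 (0.25 and 0.14), without Prox1 OE replicates 2 and 3 (0.12 and 0.10), with no filter (0.079) and in edgeR (0.051).

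A list of 9 chaperones, dimer partners and steroid-converting enzymes linked to the glucocorticoid receptor and AHR held 1 gene that rose and 1 that fell. Over all genes tested, 17.1% were called higher and 16.2% lower. Arnt, the nuclear dimer partner of AHR, had 2444 and 2470 normalized counts in Control and 2538, 1938 and 2157 in Prox1 OE (log2 fold change -0.16, adjusted p 0.40, but -0.59 and called lower with total reads as library size, adjusted p 0.017). Hsd11b1, which makes active glucocorticoid inside hepatocytes, had 2012 and 2794 in Control and 6210, 6261 and 12286 in Prox1 OE (1.72, adjusted p 0.0067, and 0.067 without Control replicate 1). Hsd11b2, which inactivates glucocorticoid, had 47.7 and 639 in Control and 14.3, 14.2 and 1.16 in Prox1 OE (-4.47, adjusted p 0.028). The Control libraries were far apart in Hsd11b2 and Prox1 OE replicate 3 had a single read, so that the size of its fall is poorly set, from -2.61 to -6.33 with each library left out. The fall was not called with no filter (0.055), without Control replicate 2 (-2.61, adjusted p 0.18) or without Prox1 OE replicates 2 or 3 (0.062 and 0.057). The enzymes that activate and inactivate glucocorticoid therefore moved in opposite directions with all libraries in the fit. With total reads as library size 5 genes of this list were lower.

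**Figure D3:**
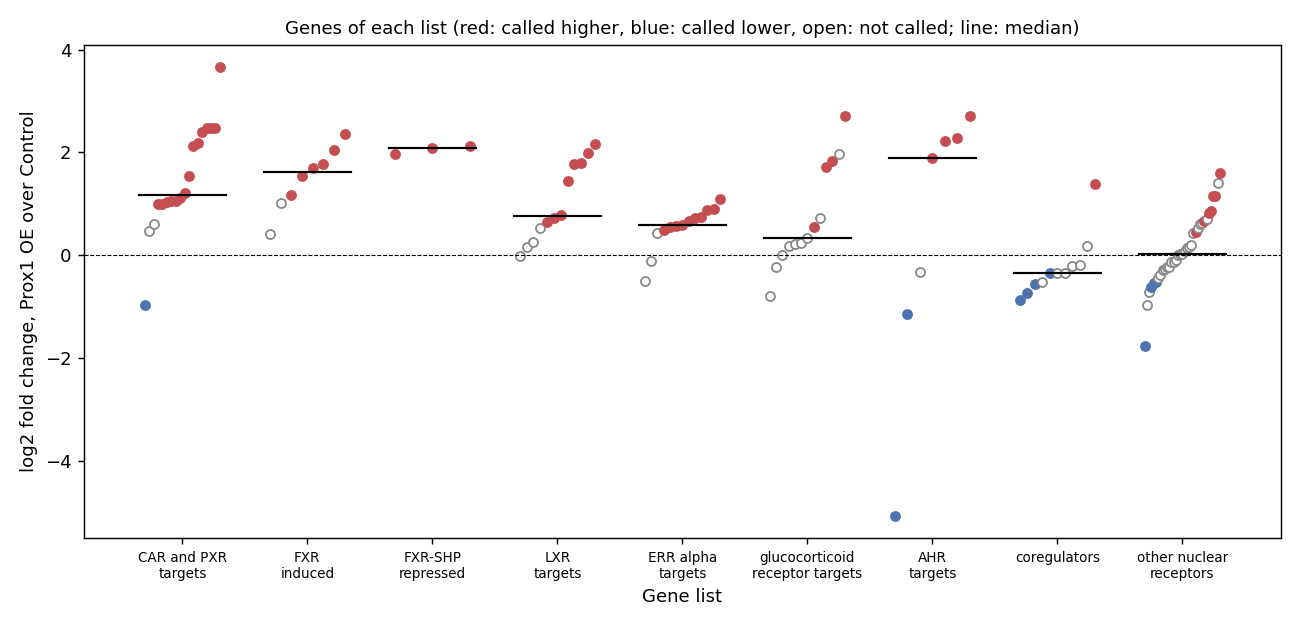
Log2 fold change, Prox1 OE over Control, of each tested gene in 9 gene lists; red points were called higher, blue lower, open points not called, and lines are list medians. Points of the CAR and PXR list and of the FXR lists lie mostly above 1, while the coregulators lie mostly under 0 (median -0.36) and the other nuclear receptors around 0 (median 0.02).

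The rest of the nuclear receptor family was used as a reference. Of 41 other nuclear receptor genes 35 were tested, 7 rose, 4 fell and 24 did not pass, beside 17.1% higher and 16.2% lower over all genes tested. Their median log2 fold change was 0.02, close to that of all genes tested and below the 0.90 of the 9 hepatic genes. Hnf4a, the master receptor of hepatocyte identity, had 8414 and 10194 normalized counts in Control and 19482, 18576 and 24052 in Prox1 OE (1.15, adjusted p 0.0033). Pparg, the lipid storage receptor, rose by 0.85 (adjusted p 0.012). Nr2c2 (-0.62, adjusted p 0.022), Nr2f2 (-0.54, 0.0085) and the retinoic acid receptor Rarg (-0.52, 0.022) fell. Ppara, the fatty acid receptor of liver, had overlapping groups (0.60, adjusted p 0.17). Nr5a2, the bile acid synthesis regulator LRH-1, had 3479 and 3822 in Control and 2971, 2824 and 3185 in Prox1 OE and did not pass (-0.29, adjusted p 0.091, but -0.72 and called lower with total reads as library size, adjusted p 0.0029). Nr2e1 and Esr2 had 0 reads in all libraries.

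These counts also depended on single libraries. Of the other receptors, 1 was higher and 0 lower without Control replicate 1, 4 and 0 without Control replicate 2, and 2 and 1 were lower without Prox1 OE replicates 2 and 3. Hnf4a had an adjusted p of 0.0501 and Pparg one of 0.12 without Control replicate 1, and Pparg was not called with total reads as library size (0.12). Nr2c2 and Rarg were not called without any of Control replicate 1 (adjusted p 0.15 and 0.17), Control replicate 2 (0.12 and 0.13), Prox1 OE replicate 2 (0.064 and 0.063) or replicate 3 (0.055 and 0.055), and Nr2f2 was not called without Control replicate 1 (0.093) or 2 (0.089). With total reads as library size 2 of the other receptors were higher and 12 lower.

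Levels of the 9 genes relative to each other were compared per length, as TPM, which divides normalized counts by exon length and then scales each library to the same sum. Since that sum depends on all other genes, only the order within a group is read from TPM, not changes between groups. In Control the order of mean TPM was Rxra (77.9), Nr1h4 (75.0), Nr1i2 (51.9), Nr1h3 (47.7), Ahr (25.4), Esrra (23.8), Nr3c1 (21.9), Nr0b2 (14.2) and Nr1i3 (13.6). Ranges overlapped for Rxra with Nr1h4 and for Nr0b2 with Nr1i3, and were separate for the other neighbors.

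In Prox1 OE the order was Nr1h3 (95.4), Nr1h4 (90.8), Rxra (85.4), Nr1i2 (70.1), Nr0b2 (55.2), Nr1i3 (27.4), Esrra (18.2), Nr3c1 (12.7) and Ahr (12.4). Neighboring ranges were separate for Rxra and Nr1i2, for Nr0b2 and Nr1i3 and for Esrra and Nr3c1, and overlapped otherwise. By mean TPM, LXR alpha had rank 4 within Control and rank 1 within Prox1 OE, SHP ranks 8 and 5, and AHR ranks 5 and 9. In Prox1 OE, ranges overlapped for Nr1h3 with Nr1h4, Nr1i2 with Nr0b2 and Nr3c1 with Ahr. Ranks 1, 5 and 9 of Prox1 OE were therefore not separated from every neighbor. In either group RXR alpha, FXR, PXR and LXR alpha held the first 4 ranks.

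Because hepatocyte markers rose too, each gene was also set against them within the same library, as its log2 value minus the mean log2 of the 11 markers. That marker mean was 14.9 and 15.5 in Control and 16.6, 16.6 and 17.2 in Prox1 OE, a difference of 1.53. Nr0b2 was the gene of the 9 that rose past the markers, from -7.31 and -7.25 in Control to -6.52, -5.64 and -6.59 in Prox1 OE, a difference of 1.03 without overlap. Nr1i3 (difference 0.13) and Nr1h3 (0.09) kept pace, with overlapping groups. The remaining 6 lay below Control in every Prox1 OE library, by -0.47 for Nr1i2, -0.63 for Nr1h4, -0.77 for Rxra, -1.29 for Esrra, -1.71 for Nr3c1 and -1.95 for Ahr. These differences are descriptions without a test, and the part of hepatocyte content in each receptor's change was not tested.

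**Figure D4:**
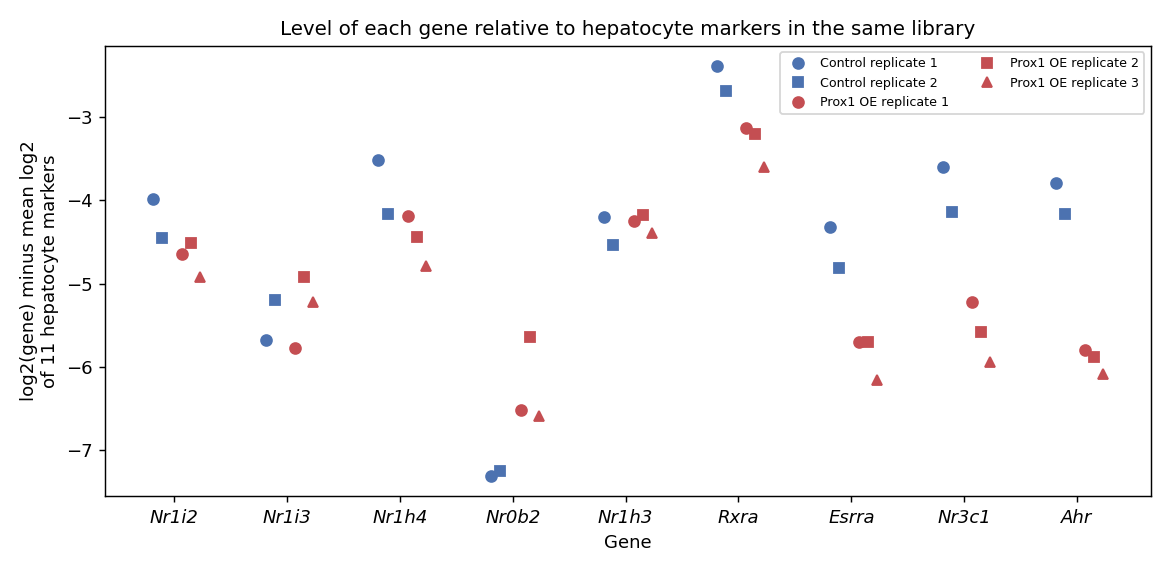
Log2 level of each of the 9 genes minus the mean log2 level of 11 hepatocyte markers in the same library; blue points are Control and red points Prox1 OE libraries, with marker shapes for replicate numbers. Nr0b2 is the gene whose red points all lie above its blue points, Nr1i3 and Nr1h3 overlap, and the red points of the other 6 lie below.

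Prox1 OE replicate 1 had the most Prox1, 48090 normalized counts. It was the lowest Prox1 OE library in 4 of the 6 called genes and the highest in 0. Over all 2933 genes called higher, it was the lowest in 50.9% and the highest in 17.9%. A low replicate 1 was thus common among genes called higher and not particular to the receptors. With 3 libraries no relation to dose was tested.

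Finally, the genes of most similar pattern were listed by the root mean square difference of centered log2 values over the 5 libraries, among 12970 genes with a mean of at least 100. With 5 libraries many genes come close, so these are descriptions. Nearest to Nr1i2 were Tango2 (0.027) and Dhrs4 (0.030), to Nr1i3 the apolipoprotein genes Apoa1 (0.053) and Apom (0.090), and to Nr1h4 Slc18a1 and Trap1 (both 0.041). Nearest to Nr1h3 were Cideb (0.016) and Pex16 (0.035), and to Rxra Cluh (0.016) and Ttc23 (0.025). Nr0b2 had the most distant neighbors, the glutathione transferase genes Gsta1 (0.109) and Gm3776 (0.179). Closest to Esrra were Vdac1 (0.016) and Pdcd6 (0.017), to Nr3c1 Otud6b (0.0088) and Slc35f5 (0.017), and to Ahr Larp4 (0.032) and Pigm (0.048).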

How the data were processed

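Tumor RNA was made into libraries by the authors with a dUTP protocol, sequenced as read pairs and mapped with STAR to mm10. How reads were counted, and whether by strand, is not given in the sources used here. The deposited signal table holds reads per gene divided by a DESeq2 size factor, and whole reads were recovered for 100% of values (tolerance 0.01 reads). Gene names and positions came from GENCODE M21, which matched 55137 of 55397 identifiers (99.5%). All columns of the table were matched to a labeled library (0 unmatched). A deposited table of the authors' own comparison, with fold changes and p-values, was not used.

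Genes with a mean normalized count of at least 10 (17105 genes) were tested on log2(value + 1) with limma 3.58.1 (eBayes with trend, two-sided, R 4.3.3), without covariates, at a Benjamini-Hochberg adjusted p under 0.05. Such fold changes understate low genes. All adjusted p values in the text are limma's unless another tool is named. Alternatives were TMM, total reads as library size, pseudocounts 0.1 and 10, no filter, a mean of at least 50, edgeR 4.0.16 and DESeq2 1.42.0 on recovered reads, a replicate block and each library left out. The fit was tested on simulated data. Named genes were the 9 receptors, canonical targets and partners and, per list, up to 3 called genes of largest change each way with a mean of at least 100, of which 2 are not reported here. The members and lists were chosen with earlier results of these data known.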

Additional observations from a re-analysis of the deposited data

How the results depend on the processing

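The study has 2 Control libraries, so each call rests on both. Over the 9 genes and 14 alternatives, 117 of 126 values kept their direction and side of the threshold, 4 lost the call, 4 gained one and 1 reversed. Scaling by total reads moved the median over all genes from -0.02 to -0.44 on the log2 scale and the share of calls that were higher from 51.4% to 17.8%. Under it Rxra was 0.33 (not called), Esrra -0.19, Nr3c1 -0.61 and Ahr -0.85 (both called lower, so that 2 of the 9 were lower), and 33 genes of the receptor-related lists were lower in place of 12, with Pdk4 at -0.0073, Ppargc1a at -0.24 and Nr1h2 at -0.30. Fkbp5 (-0.44), Arnt (-0.59) and Nr5a2 (-0.72) gained a call as lower under total reads. Abca1 and Fkbp5, close to 0, turned sign with TMM (0.0048 and 0.016), edgeR (0.035 and 0.013) and DESeq2 (0.027 and 0.0039).

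Leaving out each library gave ranges of 1.12 to 2.20 for Nr1i3, 0.61 to 0.91 for Rxra, -0.53 to -0.30 for Ahr, -0.21 to 0.20 for Abca1 and -0.17 to 0.16 for Fkbp5. The number of the 9 genes lower ran from 0 to 1, of list genes higher from 20 to 63 (59 with all libraries) and of list genes lower from 2 to 12. The lowest count of list genes higher came without Control replicate 1. Among 630 values of 45 other genes taken by the naming rule, 554 kept their call, 58 lost it, 4 gained it and 14 reversed, and the cause was not tested.

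Replicate numbers 1 and 2 occur in both groups. Deviations of same-numbered libraries correlated at 0.14 and 0.02 over genes and no label ties them, so they share only a number. Number 3 occurs in Prox1 OE alone, so the replicate block also takes Prox1 OE replicate 3 out of the comparison, and its estimates for the 9 genes equal those without that library. With it Ahr was -0.53 (adjusted p 0.022), making 1 of the 9 genes lower, and calls over all genes were 2676 higher and 2570 lower, beside 2933 and 2769. Ppara gained a call with the block (0.64, adjusted p 0.034). Depth did not limit the 9 genes, the lowest of which had 241 reads in a library.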
